A study of Mus musculus with 15 samples.

Results

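The genes described here encode the mouse major histocompatibility complex (MHC) class I molecule and the machinery that supplies it with peptides. The list of 10 genes was fixed by name and comprised the heavy chains H2-K1 and H2-D1, their light chain B2m, the peptide transporter subunits Tap1 and Tap2, the loading factor Tapbp, the immunoproteasome subunits Psmb8, Psmb9 and Psmb10, and the transcriptional regulator Nlrc5. They were followed in 15 tumors among 32543 genes, of which 15494 were expressed enough to be tested. All 10 listed genes were among those tested, and no other gene in the table shared the exact counts of any of them. The tumors were grown under the skin of wild-type female BALB/c mice from WEHI-164, a fibrosarcoma line derived from that strain. The labels give no age for the mice, and the study's methods give a single range for all its animals. Tumors taken on day 0 were untreated. Those taken on day 1, 3, 5 or 7 came from mice whose tumors were injected each day with 1 µg of poly(I:C) in 25 µL, with 6 doses planned. The dose carries a doubt, since a supplementary legend of the study names a larger amount per day for these tumors. Poly(I:C) mimics viral double-stranded RNA and is sensed by Toll-like receptor 3. There were 3 tumors for each day, the labels name no group injected with vehicle alone, and all tumors came from the same line in the same strain.

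Class I molecules display fragments of cytosolic proteins on the cell surface, where CD8+ T cells inspect them. The proteasome cuts the proteins, TAP carries the fragments into the endoplasmic reticulum, and tapasin holds empty class I molecules at the transporter until they bind a peptide. Interferons raise many genes of this route in most cell types, and under interferon the catalytic subunits of the proteasome are replaced by inducible counterparts. NLRC5 is a transactivator that acts on class I promoters.

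A stretch before the start of each of 4 genes is shown because it holds the interferon- or NF-kappa B-type letter patterns that were found among the promoters of these genes. The sequences are those of RefSeq for GRCm38.p6, 5′ to 3′ on the strand of the gene, and the capitals mark the matches.
H2-K1: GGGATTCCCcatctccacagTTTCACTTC
H2-D1: GGGATTCCCcatctcctcagTTTCACTTC
B2m: ataagaacatGAAACTGAAaatgggaaag
Psmb8: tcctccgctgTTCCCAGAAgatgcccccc
The H2-K1 stretch lay at chr17:34000429-34000457 on the minus strand, from 110 to 82 bases before the RefSeq start, outside the exons annotated in GENCODE M21. The H2-D1 stretch lay at chr17:35262924-35262952 on the plus strand, from 170 to 142 bases before the RefSeq start. GENCODE M21 has a transcript that starts further upstream and places the H2-D1 stretch in its 5′ untranslated region. The B2m stretch lay at chr2:122147538-122147566 on the plus strand, from 149 to 121 bases before the start and outside annotated exons. The Psmb8 stretch lay at chr17:34198088-34198116 on the plus strand, from 107 to 79 bases before the RefSeq start, again within the 5′ untranslated region of a GENCODE M21 transcript.

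Both heavy chain genes held the kappa B pattern GGGANTNCC, which was present in 3.36% of 32851 promoters in the 250 bases before the start. In both genes the matched bases fit this pattern on either strand. Both also held GAANNGAAA, a form of the interferon-stimulated response element, which occurred in 6.31% of promoters. The 29-base stretches of H2-K1 and H2-D1 differed at 1 position, A17T, counted from 1 at the 5′ end with the base of H2-K1 first. Over a wider window of 99 bases lined up on the kappa B match, 95 bases (96%) were identical. B2m held the related form GAAANNGAA, found in 7.13% of promoters, and Psmb8 held the interferon gamma-type pattern TTCNNNGAA, found in 7.02%. Patterns were sought on both strands, and no match overlapped a match of another pattern. The table held promoters for 8 of the 10 genes, and Tap2 and Nlrc5 had no entry. Tap1 and Psmb9 are read in opposite directions from RefSeq starts on either side of a 225-base region at chr17:34187331-34187555, of which 61.3% was G or C. None of the 4 patterns occurred in it, which says only that these letters were not there. In GENCODE M21 the Psmb9 gene extends across this region to 34187764, past the Tap1 start at 34187553.

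The genes of the list other than B2m, Psmb10 and Nlrc5 lie in or beside the MHC of the mouse, on chromosome 17. In GENCODE M21 coordinates on GRCm38, Psmb9 ran from 34181987 to 34187764, Tap1 from 34187553 to 34197225, Psmb8 from 34197721 to 34201454 and Tap2 from 34203527 to 34216321. On the same chromosome, Tapbp ran from 33915899 to 33929292, H2-K1 from 33996017 to 34000347 and H2-D1 from 35262730 to 35267499. B2m is on chromosome 2 (122147686 to 122153083), Psmb10 on chromosome 8 (105935735 to 105938444) and Nlrc5 on chromosome 8 (94434356 to 94527272). Heavy chain genes differ between strains. BALB/c mice carry the d haplotype and an additional class I gene, H2-L, while the reference strain C57BL/6J carries the b haplotype. Reads from these tumors were therefore assigned to the sequences of the other haplotype, and reads that fit several class I genes were divided among them, so the split between H2-K1, H2-D1 and their relatives is uncertain.

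The tumors were sequenced to between 23.7 and 31.9 mega-counts each. Markers of the labelled tumor type (Col1a1, Col1a2, Col3a1, Vim, Pdgfrb and Fn1) summed to between 7543 and 28714 CPM, a count scaled to the same normalized library size in each tumor, and were present in every tumor. A single tumor stood apart. Day 3 replicate 1 lay at 144 on the first principal component of log2 CPM, which held 57.4% of the variance, against -77.0 to 45.1 for the other 14 tumors. It had the highest summed CPM of the leukocyte, fibroblast and skeletal muscle markers, and the list medians printed for day 3 are also given without it. Nothing in the labels says that tumors of the same day came from separate experiments, so p-values measure the spread between these tumors.

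The class I and loading genes were higher on average on days 1, 3 and 5 than on day 0, and lower on day 7. On the log2 scale, the median difference from day 0 over the 10 genes was 0.49 at day 1, 0.51 at day 3, 0.29 at day 5 and -0.19 at day 7. All 10 genes had a positive difference on days 1, 3 and 5, as did 49.9%, 48% and 50.3% of all genes, and 0 of 10 had one on day 7, against 44.4% of all genes. The median over all genes tested lay between -0.02 (day 3) and 0.0015 (day 5). After Benjamini-Hochberg adjustment over all genes of the p-values of edgeR's quasi-likelihood test, 0 of the 10 genes passed an adjusted p of 0.05 on any day, and neither did any other gene (0%). Without adjustment, 3 of 10 had a p under 0.05 on day 1 and 3 on day 3, and 0 had one on days 5 and 7, beside 2.18%, 18.3% and 1.41% of all genes higher at that level on days 1, 3 and 5 and 1.02% lower on day 7. DESeq2 called 0 of the 10 on each of these days, while it called 0.239% of all genes higher on day 1, 9.02% at day 3 and 0.0194% at day 5, and 0.0129% lower at day 7. The share called higher at day 3 fell to 0.28% without day 3 replicate 1, and to 0.0388%, 2.12% and 0.259% when day 0 replicate 1, 2 or 3 was left out. In whole tumors, fewer cells of a type and less RNA per cell cannot be told apart.

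**Figure D1:**
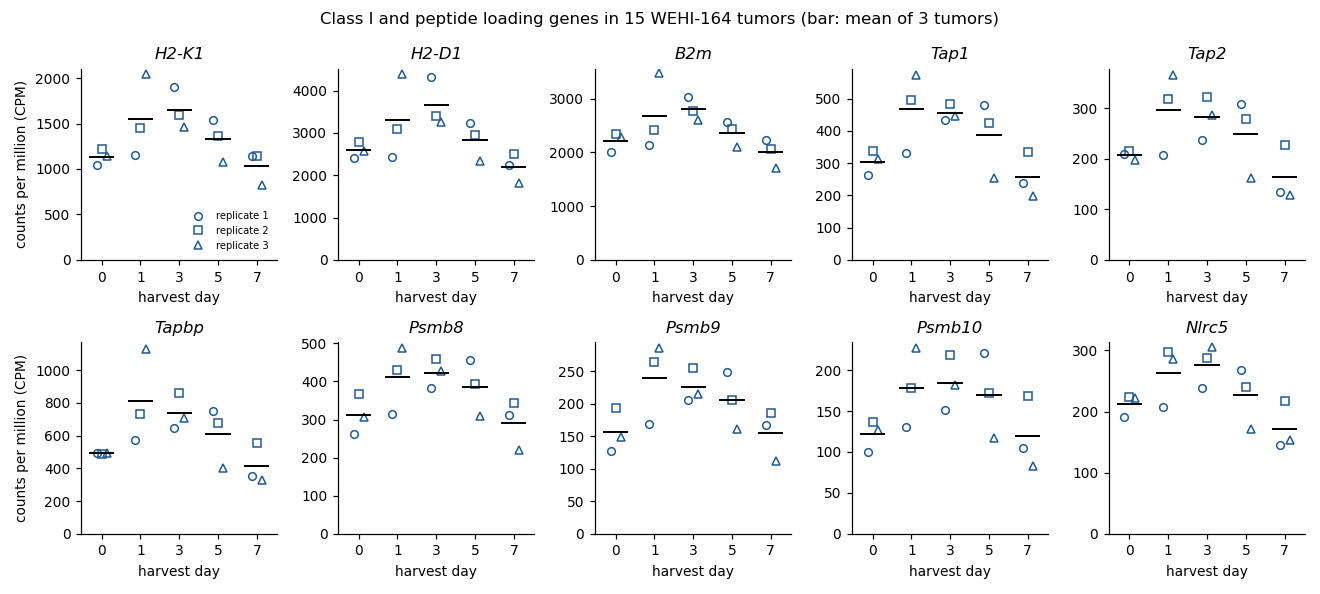
CPM of the 10 class I and loading genes (vertical axes, linear from 0) in each of 15 tumors by harvest day, with symbols for replicates and a bar for the mean of 3 tumors. On day 3 every tumor lies above all day 0 tumors in each panel, and the single highest value is that of day 1 replicate 3 in all panels except Nlrc5.

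The heavy chain H2-K1, which presents peptides to CD8+ T cells, stood at 1043, 1222 and 1137 CPM in the day 0 tumors, 1158, 1455 and 2044 on day 1, and 1899, 1593 and 1463 on day 3. Later values were 1534, 1366 and 1075 CPM on day 5 and 1141, 1141 and 825 on day 7. All day 3 tumors were above all day 0 tumors, whereas the ranges of the other days overlapped that of day 0. The difference in log2 CPM between day 3 and day 0 was 0.54 ± 0.21 (SE), a 1.46-fold higher level, with an edgeR adjusted p of 0.131 and a DESeq2 adjusted p of 0.0631. Without day 3 replicate 1 it was 0.43.

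H2-D1, the other heavy chain, was counted at 2404, 2789 and 2570 CPM on day 0, 2421, 3096 and 4393 on day 1, and 4327, 3403 and 3269 on day 3. It then stood at 3243, 2940 and 2347 CPM on day 5 and 2245, 2513 and 1823 on day 7. As with H2-K1, day 3 lay wholly above day 0. Here day 3 also lay wholly above day 5. The day 3 difference was 0.50 ± 0.21 on the log2 scale (1.42-fold, edgeR adjusted p = 0.148) and 0.37 without day 3 replicate 1. When the counts of 15 class I heavy chain genes were summed into 1 feature, because reads are shared among them, the day 3 difference was 0.44 (edgeR adjusted p = 0.163).

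B2m, the invariant light chain that every class I heavy chain needs to reach the surface, was at 2001, 2345 and 2290 CPM on day 0, 2134, 2421 and 3474 on day 1, and 3039, 2772 and 2600 on day 3. On day 5 it was at 2567, 2442 and 2095 CPM and on day 7 at 2224, 2058 and 1716. Its day 3 tumors were above those of days 0, 5 and 7 without overlap. The day 3 difference from day 0, 0.34 ± 0.18 (1.27-fold, edgeR adjusted p = 0.197), was the smallest of the 10 genes.

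Tap1, an ATP-driven subunit of the peptide transporter, had 262, 338 and 314 CPM on day 0, 331, 496 and 574 on day 1, and 435, 484 and 445 on day 3. The values were 480, 425 and 254 CPM on day 5 and 237, 334 and 197 on day 7. Its day 3 tumors were tightly grouped, and those of days 5 and 7 spread more widely. Relative to day 0, Tap1 was higher by 0.62 ± 0.26 on day 1 (edgeR adjusted p = 1) and by 0.58 ± 0.26 on day 3 (edgeR adjusted p = 0.159) on the log2 scale.

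Tap2, the partner of Tap1, had 209, 215 and 197 CPM on day 0, 208, 318 and 367 on day 1, and 238, 323 and 286 on day 3. It had 309, 278 and 162 CPM on day 5 and 135, 227 and 128 on day 7. Day 3 replicate 1, which had among the highest heavy chain levels, was the lowest of the day 3 tumors for Tap2. The log2 difference between day 3 and day 0 was 0.45 ± 0.28 (edgeR adjusted p = 0.264), and 0.56 without that tumor.

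Tapbp encodes tapasin, the bridge between the transporter and empty class I molecules. It was at 494, 490 and 495 CPM in the day 0 tumors, 573, 735 and 1130 on day 1, and 646, 860 and 707 on day 3. Day 5 gave 750, 674 and 401 CPM and day 7 gave 354, 553 and 330. The untreated tumors were nearly equal for Tapbp, with a coefficient of variation of 0.478%, and it was the only listed gene whose day 1 tumors all exceeded the day 0 tumors. Among all genes tested, 5.76% were higher on day 1 without overlap. The day 1 difference was 0.72 ± 0.28 (1.65-fold, edgeR adjusted p = 1), the largest of any listed gene on any day relative to day 0, and it was 0.41 without day 1 replicate 3.

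Psmb8 encodes the inducible subunit with chymotrypsin-like activity. It had 262, 366 and 307 CPM on day 0, 315, 429 and 489 on day 1, 382, 458 and 427 on day 3, 457, 393 and 309 on day 5, and 311, 344 and 221 on day 7. The lowest day 3 tumor exceeded the highest day 0 tumor by a narrow margin. Its day 3 difference was 0.44 ± 0.21 on the log2 scale (edgeR adjusted p = 0.176).

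Psmb9, whose RefSeq start shares an upstream region with that of Tap1, had 127, 194 and 149 CPM on day 0, 168, 264 and 286 on day 1, 206, 255 and 214 on day 3, 249, 206 and 161 on day 5, and 167, 186 and 112 on day 7. Day 0 replicate 2 was high among the untreated tumors. The log2 differences from day 0 were 0.61 ± 0.24 on day 1 (edgeR adjusted p = 1) and 0.52 ± 0.24 on day 3 (edgeR adjusted p = 0.169).

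Psmb10, the inducible subunit with trypsin-like activity, had 100.1, 137 and 127 CPM on day 0, 130, 178 and 227 on day 1, 151, 219 and 182 on day 3, 222, 172 and 117 on day 5, and 105, 169 and 82.9 on day 7. On day 7 its tumors varied most among the 10 genes, with a coefficient of variation of 37.5%. The log2 differences from day 0 were 0.60 ± 0.29 on day 3 (edgeR adjusted p = 0.183) and 0.49 ± 0.29 on day 5 (edgeR adjusted p = 0.859).

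Nlrc5, the class I transactivator, had 191, 224 and 222 CPM on day 0, 208, 297 and 286 on day 1, 238, 288 and 305 on day 3, 269, 239 and 171 on day 5, and 145, 217 and 154 on day 7. It was the only listed gene with its peak in a day 3 tumor, replicate 3. The day 3 difference was 0.38 ± 0.20 on the log2 scale (edgeR adjusted p = 0.202).

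Across the 10 genes, 10 had all 3 day 3 tumors above all 3 day 0 tumors, beside 19.4% of all genes tested. The count was 1 of 10 for day 1 (5.76%), 0 for day 5 (6.89%) and 0 for day 7 (6.26% of all genes lower). These genes moved together from tumor to tumor, so the 10 are not independent. Ordered by the mean, day 3 was highest for H2-K1, H2-D1, B2m, Psmb8, Psmb10 and Nlrc5, day 1 was highest for Tap1, Tap2, Tapbp and Psmb9, and day 7 was lowest for all 10. Days 1 and 3 overlapped for all 10 genes, as did days 0 and 7.

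**Figure D2:**
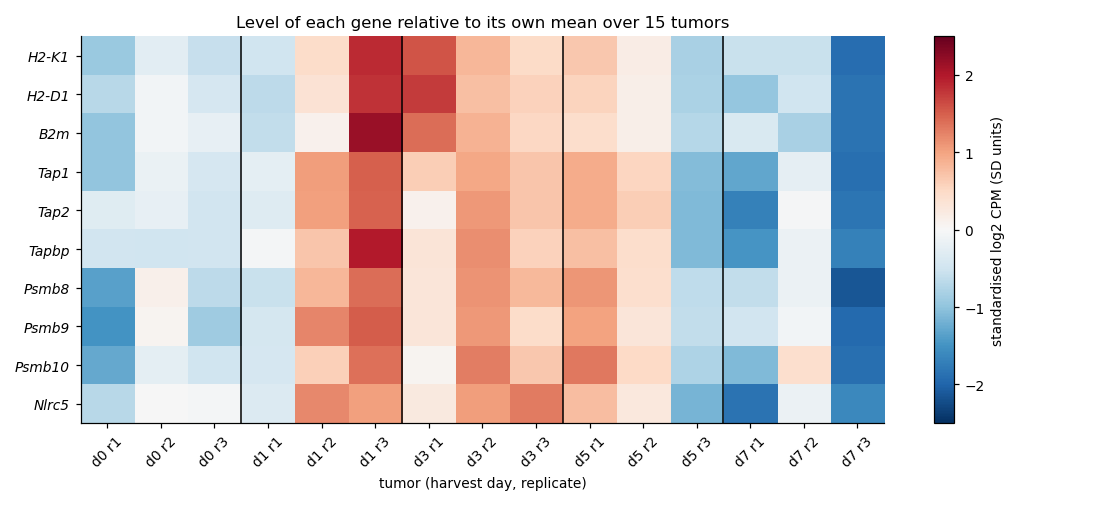
Standardised log2 CPM of the 10 genes (rows) in 15 tumors (columns, by harvest day and replicate), in SD units relative to the mean of each gene over all tumors. Day 1 replicate 3 is the highest column for 9 of 10 genes and day 7 replicate 3 the lowest for 9 of 10, while day 3 replicate 1 ranks 2 for H2-K1, H2-D1 and B2m and 6 to 8 for the other 7.

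Tumors of the same day differed widely. Day 1 replicate 3 ranked 1 of the 15 tumors for 9 of 10 genes, with Nlrc5 at rank 4, whereas day 1 replicate 1 ranked between 8 and 11. Day 7 replicate 3 ranked last for 9 of 10, with Nlrc5 lowest in day 7 replicate 1. The day 1 median over the 10 genes was 0.30 in place of 0.49 when day 1 replicate 3 was left out. For day 5, the median of 0.29 was 0.12 without replicate 1 and 0.47 without replicate 3. The day 3 median was steadier, at 0.53 without replicate 1.

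Day 3 replicate 1 split the list. It ranked 2 of the 15 tumors for H2-K1, H2-D1 and B2m, and between 6 and 8 for the other 7 genes. Over the 15 tumors, the log2 CPM of H2-K1 correlated with that of H2-D1 at r = 0.99 and with that of B2m at r = 0.98. Tap1 correlated with Tap2 at r = 0.97 and with Tapbp at r = 0.96, and Psmb8 with Psmb9 at r = 0.98. The lowest correlation within the list was that of B2m and Nlrc5, r = 0.73. These values describe the same 15 tumors and share their libraries.

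Per kilobase of the longest annotated coding transcript, the order of abundance was fixed at both ends of the list. Between them ranks shifted among tumors, for Tapbp from 4 to 6 and for Tap1 from 7 to 8. B2m was the most abundant in all tumors, between 1995 and 4039 CPM per kilobase, followed by H2-D1 between 867 and 2090 and H2-K1 between 510 and 1262. The subunits of the immunoproteasome, tapasin and the transporter lay below them, with Tap2 ninth in every tumor at 37.3 to 107 CPM per kilobase. Nlrc5 was the least abundant in every tumor, at 19.2 to 40.3 CPM per kilobase. The order of H2-D1 over H2-K1 is subject to the assignment of reads to the other haplotype.

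The ratio of the heavy chains was nearly constant. H2-K1 stood to H2-D1 at a log2 ratio of CPM of -1.19 ± 0.01 (SD, n = 3) in untreated tumors. The means were -1.09 ± 0.02 at day 1, -1.15 ± 0.05 at day 3, -1.10 ± 0.02 at day 5 and -1.09 ± 0.10 at day 7. The ratio was above the day 0 range in every tumor of days 1, 5 and 7. Its range over all 15 tumors was 0.23, smaller than the day 3 difference of either gene. H2-K1 to B2m was -0.96 ± 0.04 on day 0 and -0.77 ± 0.08 on day 3, without overlap. Tap1 to Tap2 overlapped day 0 on every day.

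**Figure D3:**
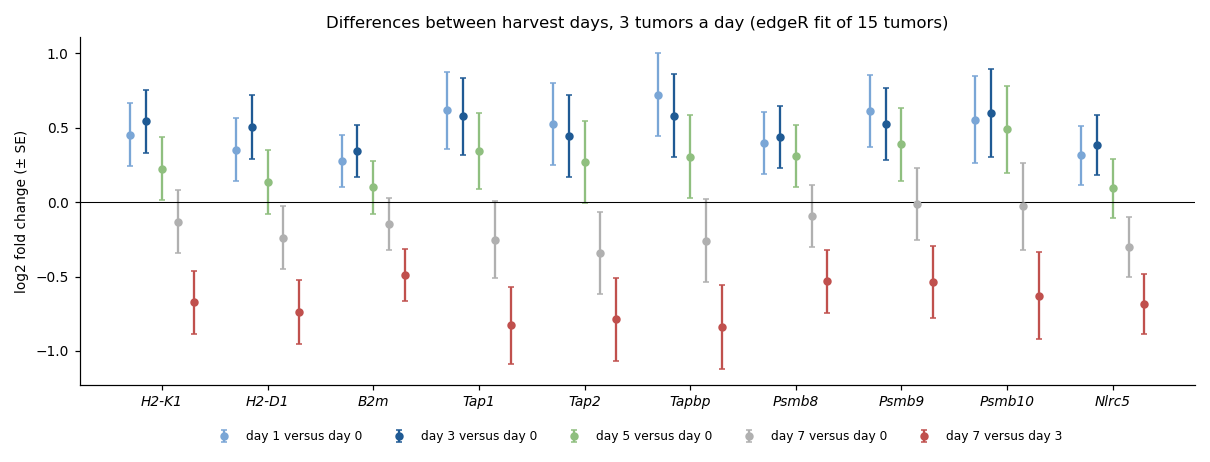
Log2 fold changes of the 10 genes with their standard errors from an edgeR fit of 15 tumors, for each treated day against day 0 and for day 7 against day 3. All 10 points lie above 0 on days 1, 3 and 5 and below 0 on day 7 relative to day 0, and those of day 7 against day 3 lie between -0.84 and -0.49.

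The contrast of day 7 with day 3 asked how the genes stood after the planned dosing relative to their level during it. All 10 genes were lower on day 7 (51.6% of all genes were higher), with log2 differences between -0.84 (Tapbp) and -0.49 (B2m), and a median of -0.68, while the median of all genes tested was 0.02. The groups did not overlap for 9 of 10 genes, all but Psmb10, beside 18.4% of all genes lower without overlap. In edgeR's quasi-likelihood test 0 of 10 passed the adjusted threshold, as for all genes (0%), and 9 of 10 had an unadjusted p under 0.05 beside 22.6% of all genes lower. The edgeR adjusted p was 0.0832 for H2-K1, H2-D1, Tap1 and Nlrc5, 0.0852 for Tapbp, 0.0905 for Tap2 and 0.0935 for B2m. It was 0.105 for Psmb8, 0.137 for Psmb9 and 0.144 for Psmb10. DESeq2 called 7 of 10 lower (H2-K1, H2-D1, B2m, Tap1, Tap2, Tapbp and Nlrc5) and 15.1% of all genes lower.

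The DESeq2 result rested on single tumors. Without day 7 replicate 1 it called 0 of 10 genes, and without day 7 replicate 3 likewise 0, with 0.0388% and 0.0518% of all genes lower. Without day 3 replicate 1 it called 1 (Nlrc5), with 0.345% of all genes lower. The directions held throughout, and the log2 difference of H2-D1 ranged from -0.85 to -0.60 when any 1 of the 15 tumors was left out. In the joint test of the 4 treated days against day 0, edgeR passed 0 of 10 genes (0% of all genes) and 5 of 10 had an unadjusted p under 0.05 (16.2% of all genes). DESeq2 passed 1, Tapbp, with an adjusted p of 0.0482, beside 7.59% of all genes.

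Most markers of immune cells were higher on day 3, when the class I genes were also higher, and they differed less on day 1. The leukocyte markers Ptprc, Coro1a and Laptm5 summed to 329 to 485 CPM on day 0, 314 to 738 at day 1, 753 to 1875 at day 3, 418 to 915 at day 5 and 231 to 593 at day 7, and 3 of 3 were higher on day 3. Without day 3 replicate 1 their median log2 difference on day 3 was 0.73 in place of 1.39. Of T cell markers (Cd3d, Cd3e, Cd3g, Cd2, Cd247 and Lck), 6 of 6 were higher on day 3, with sums of 20.2 to 29.6 CPM on day 0 and 68.6 to 204 on day 3, and a median of 2.13, or 1.40 without that tumor. NK cell markers (Ncr1, Klrb1c and Eomes) summed to 7.86 to 10.1 and 21.7 to 74.0 CPM on these days, with 3 of 3 higher and a median of 2.36, or 1.81 without it. Macrophage markers (Adgre1, Csf1r, Cd68, C1qa, C1qb, C1qc and Mrc1) summed to 1534 to 1667 and 2479 to 6431 CPM, with 6 of 7 higher and a median of 1.48, or 1.00 without it. Dendritic cell markers (Flt3, Xcr1, Clec9a and Zbtb46) summed to 8.13 to 11.5 CPM on day 0 and 41.6, 12.1 and 11.7 on day 3. Their median of 1.01 was carried by day 3 replicate 1, without which it was 0.12 with 3 of 4 higher. On day 1 the median log2 differences were 0.25 for leukocyte, 0.16 for T cell and 0.21 for NK cell markers. They were 0.23 for macrophage and -0.17 for dendritic cell markers. Without day 1 replicate 3 these medians were, in the same order, -0.21, -0.62, -0.42, -0.18 and -0.48. No marker of these lists was at 0 in all tumors of a day. DESeq2 called 3 of 3 leukocyte and 6 of 6 T cell markers higher on day 3, beside 9.02% of all genes, while edgeR called 0. These DESeq2 calls rested on single tumors, since without day 3 replicate 1, or without day 0 replicate 1 or 3, it called 0 of either list, and without day 0 replicate 2 it called 1 of each, Ptprc and Cd247.

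Summed over their lists, leukocyte markers and class I genes ordered the tumors alike within each day. The sum of the 10 genes is weighted towards H2-D1, B2m and H2-K1. These averaged 2588, 2212 and 1134 CPM on day 0, followed by Tapbp at 493 CPM. The summed CPM of the 10 genes put the 3 tumors in the order of the leukocyte sum on 5 of 5 days, and day 7 replicate 3 ranked 15 of 15 for both. H2-D1 had that order on 5 of 5 days, H2-K1, B2m, Tap1, Psmb8, Psmb9 and Psmb10 on 4, Tap2 and Tapbp on 3 and Nlrc5 on 2. On day 3 the order was shared by H2-K1, H2-D1 and B2m but not by the other 7 genes. The tumor with the most leukocyte marker RNA was day 3 replicate 1 at 1875 CPM, and Tap1 in that tumor was at 435 CPM, below Tap1 in the other day 3 tumors. Day 1 replicate 3, the highest tumor for 9 of the 10 genes, had 738 CPM of leukocyte markers, above the 314 to 485 CPM of the other tumors of days 0 and 1 and near the 769 and 753 CPM of day 3 replicates 2 and 3. Without it the day 1 median of the leukocyte markers was -0.21 in place of 0.25, with 0 of 3 higher, while that of the class I genes was 0.30 in place of 0.49. Without day 3 replicate 1 the day 3 median of the class I genes was 0.53 in place of 0.51. The part of these cells in the class I differences was not tested. Among markers of other tissues, skeletal muscle (Acta1, Myh4, Myh1, Ckm, Tnnt3 and Mylpf) summed to between 2.68 and 2950 CPM, with the maximum in day 3 replicate 1. Adipocyte markers (Adipoq, Plin1, Cidec and Lep) reached 41.2 CPM and keratinocyte markers (Krt5, Krt14 and Krt10) reached 25.1 CPM, both on day 3. Endothelial markers (Pecam1, Cdh5 and Kdr) summed to 136 to 148 CPM on day 0 and 146 to 441 on day 3, with a median log2 difference of 0.98, or 0.40 without day 3 replicate 1. Erythroid markers (Hba-a1, Hbb-bs and Alas2) summed to 7.21 to 17.9 CPM on day 0, 8.17 to 20.3 on day 3 and 21.8 to 168 on day 7, and to 93.7 in day 1 replicate 3 against 9.41 and 11.6 in the other day 1 tumors. Relative to day 3, all 3 stood higher at day 7, by a median of 2.97 on the log2 scale. In that contrast DESeq2 called 3 of 3, beside 21% of all genes called in either direction. It called 0 without day 7 replicate 3 or day 3 replicate 1, with 0.0712% and 0.26% of all genes higher. With edgeR 0 were called, as for all genes (0%). The part of these cells in the class I differences was likewise not tested.

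**Figure D4:**
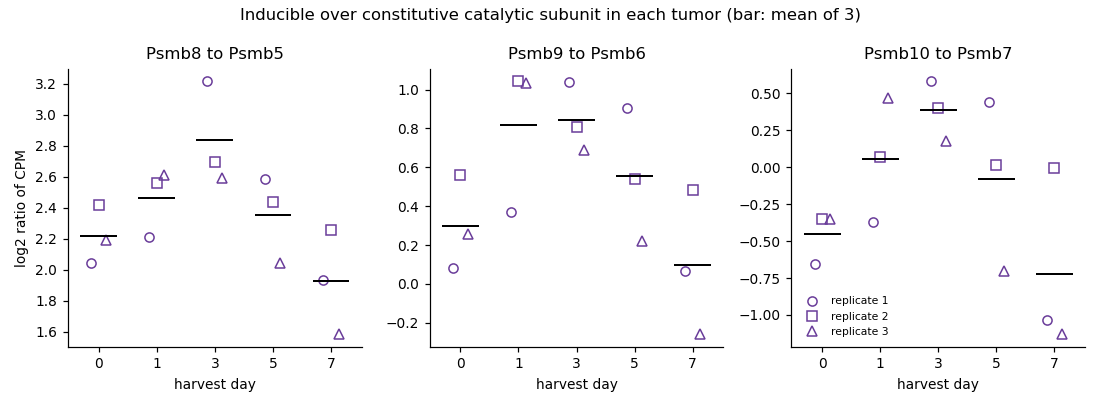
Log2 ratio of CPM of each inducible proteasome subunit to the constitutive subunit it replaces (vertical axes) in 15 tumors by harvest day, with a bar for the mean of 3 tumors. In all 3 panels the day 3 tumors lie above the day 0 tumors, and the tumors of the other days overlap those of day 0.

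The inducible subunits were compared with the subunits whose place they take. Psmb8 replaces Psmb5, and the log2 ratio of their CPM was 2.04, 2.42 and 2.19 in the day 0 tumors and 3.22, 2.70 and 2.59 on day 3. Psmb9 replaces Psmb6, with ratios of 0.08, 0.56 and 0.26 on day 0 and 1.04, 0.81 and 0.69 on day 3. Psmb10 replaces Psmb7, with ratios of -0.65, -0.35 and -0.35 on day 0 and 0.58, 0.40 and 0.18 on day 3. In each pair all day 3 tumors were above all day 0 tumors. Day 3 replicate 1 had the highest ratio of that day in each pair. Its Psmb8, Psmb9 and Psmb10, at 382, 206 and 151 CPM, were nevertheless the lowest of the day 3 tumors. The constitutive proteasome core genes in it summed to 1585 CPM, against 2246 and 2060 in the other day 3 tumors and 1855 to 2039 on day 0. On the log2 scale, Psmb8 to Psmb5 averaged 2.46 ± 0.21 (SD, n = 3) at day 1, 2.35 ± 0.28 at day 5 and 1.92 ± 0.34 at day 7, each overlapping day 0. These ratios compare RNA of genes of different length, so their changes and not their values are of use, and no test was run on them.

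**Figure D5:**
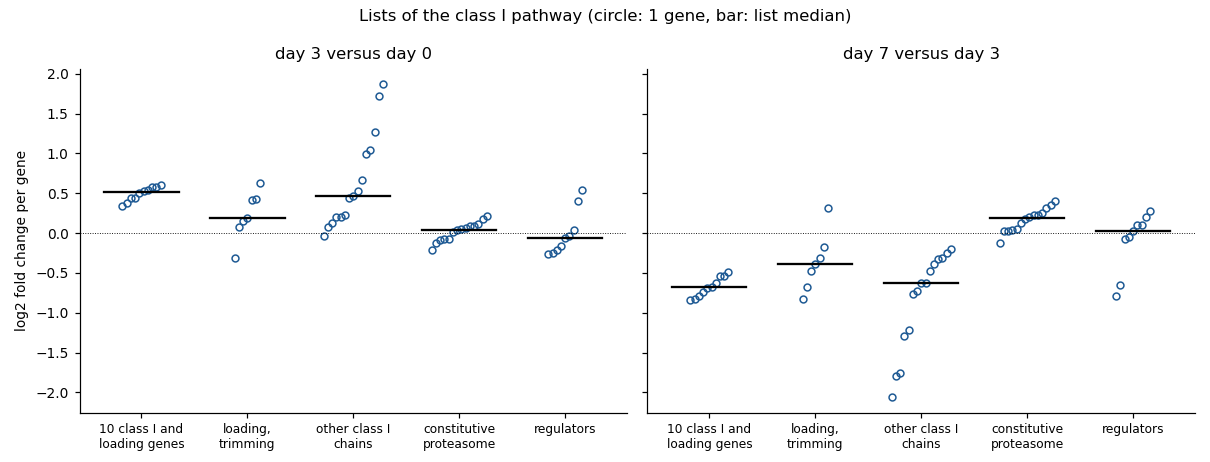
Log2 fold change of each gene (circles) and the median (bars) for the 10 class I and loading genes and 4 other lists of the pathway, for day 3 against day 0 and day 7 against day 3. The other class I chains have a median of 0.47 on day 3, near that of the 10 genes, and the constitutive proteasome a median of 0.04.

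The 14 genes of the constitutive proteasome core (Psma1 to Psma7 and Psmb1 to Psmb7) had a median log2 difference of 0.04 between day 3 and day 0, with 9 of 14 higher, between -0.21 and 0.22. None passed with edgeR (0% of all genes) or DESeq2, and in edgeR 0 had an unadjusted p under 0.05, beside 30% of all genes. Without day 3 replicate 1 the median was 0.17, with 12 of 14 higher. On day 7 all 14 were higher than on day 0 (44.4% of all genes), with a median of 0.17, while the 10 class I and loading genes were lower. On day 5 all 14 were also higher (50.3% of all genes), with a median of 0.18, and so were the 10 class I and loading genes.

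Other class I chains were measured for 15 of 16 listed genes. They include nonclassical molecules that are recognized by NK cells or unconventional T cells. On day 3, 14 of 15 lay above their untreated level and the median log2 difference was 0.47. In edgeR 0 of 15 passed the adjusted threshold and 9 were higher at an unadjusted p under 0.05 (18.3% of all genes), and DESeq2 called 3 higher, H2-T24, H2-T23 and H2-M3 (9.02% of all genes). DESeq2 called H2-T24 alone without day 3 replicate 1 (0.28% of all genes) or day 0 replicate 3, H2-T24 and H2-T10 without day 0 replicate 2, and 0 without day 0 replicate 1. Without day 3 replicate 1 the list median was 0.39. H2-T24 stood at 32.2, 41.6 and 40.8 CPM on day 0 and 148, 130 and 101 on day 3, a log2 difference of 1.72 ± 0.37 (DESeq2 adjusted p = 0.00251, edgeR adjusted p = 0.115). H2-T23, the mouse Qa-1 chain that binds the NK receptor NKG2A, had 226, 313 and 275 CPM on day 0 and 678, 516 and 422 on day 3. Its log2 difference was 0.99 ± 0.34 (DESeq2 adjusted p = 0.035, edgeR adjusted p = 0.115). For both genes the day 3 tumors lay above the day 0 tumors without overlap. H2-M3, which presents formylated peptides, was higher by 0.67 ± 0.21 (DESeq2 adjusted p = 0.0338, edgeR adjusted p = 0.115). H2-Q10, a secreted chain, differed by -0.03 ± 0.13. On day 7 relative to day 3, 15 of 15 were lower and DESeq2 called 9 (15.1% of all genes). It called 0 of the 15 without day 7 replicate 1 or without day 7 replicate 3 (0.0388% and 0.0518% of all genes), and 2 without day 3 replicate 1.

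Of 7 further genes of loading and trimming, 6 lay above their untreated level on day 3. The list had a median log2 difference of 0.19, or 0.29 without day 3 replicate 1, and edgeR and DESeq2 called 0. In edgeR 0 had an unadjusted p under 0.05, beside 30% of all genes. Tapbpl, a tapasin relative that edits peptides, had 40.2, 46.3 and 48.0 CPM on day 0 and 71.2, 71.3 and 66.2 on day 3, a log2 difference of 0.63 ± 0.29 (edgeR adjusted p = 0.168). The proteasome activator subunits Psme1 and Psme2 differed by 0.43 ± 0.21 and 0.41 ± 0.21, with edgeR adjusted p of 0.179 and 0.192. The aminopeptidase Erap1, which trims peptides in the endoplasmic reticulum, differed by 0.19 ± 0.15. Tapbpl, Psme1, Psme2 and Erap1 were above the day 0 range in every day 3 tumor, beside 19.4% of all genes tested higher without overlap. The general folding factors had log2 differences of 0.15 ± 0.16 for Calr, 0.08 ± 0.12 for Pdia3 and -0.32 ± 0.17 for Canx. On day 3 Calr ranged from 1066 to 1542 CPM, against 1175 to 1232 on day 0. Pdia3 ranged from 743 to 988 CPM, against 784 to 875. The 7 genes summed to 2960 CPM in day 3 replicate 1, against 4092 and 3785 in the other day 3 tumors. Differences of these single genes without that tumor are not given here. Canx was below the day 0 range in every day 3 tumor, and the share of all genes lower in this way is not given here.

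Among 9 regulators of class I transcription, the interferon regulatory factors Irf2 and Irf1, which bind interferon response elements, had the largest differences on day 3. Irf2 stood at 54.7, 55.6 and 51.6 CPM on day 0 and 94.8, 72.8 and 69.1 on day 3, a log2 difference of 0.55 ± 0.21 (edgeR adjusted p = 0.13). Irf1 stood at 328, 355 and 333 CPM on day 0, and at 374, 507 and 462 on day 3, a log2 difference of 0.40 ± 0.29 (edgeR adjusted p = 0.331). For both, every day 3 tumor was above every day 0 tumor, as for 19.4% of all genes tested. The other 7, the subunits of the RFX and NF-Y complexes and Creb1, which assemble with NLRC5 on class I promoters, lay between -0.26 and 0.04. Of these 7, Rfx5, Rfxap, Nfyb and Creb1 had every day 3 tumor below every day 0 tumor. The share of all genes lower without overlap on day 3 is not given here, so this is description only. Of the 9, edgeR and DESeq2 called 0 on day 3, and at an unadjusted p under 0.05 in edgeR 1 (Irf2) was higher and 2 (Nfyb and Creb1) were lower. Of all genes tested, 18.3% were higher at that level and 30% differed in either direction.

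The 4 genes outside the list whose log2 CPM over 15 tumors had the highest Pearson r with the mean standardised level of the 10 genes were Psme1 (r = 0.99), Gm4951 (r = 0.98), Gbp3 (r = 0.98) and Gm43302 (r = 0.98). Without the 2 tumors farthest from the median of that level, day 1 replicate 3 and day 7 replicate 3, these values were 0.99, 0.97, 0.97 and 0.99. Gbp3, an interferon-inducible GTPase, averaged 157 CPM on day 0 and 297 on day 3. The 4 were chosen for this likeness, and the values describe the same 15 libraries.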

How the data were processed

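Poly(A) libraries were read from a single end over 100 bases (Illumina HiSeq). Read quality was inspected with FastQC 0.11.3, transcripts were quantified with kallisto 0.43.0, and tximport gave gene sums on GRCm38. The values deposited by the authors are estimated counts, whole numbers with 1 column per tumor. The transcript set and strandedness are not given in the sources used here. A row whose gene name a spreadsheet had turned into a date (at most 0.0268% of counts) was left out. Groups and replicate numbers came from the labels.

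Genes with CPM above 0.366 in at least 3 tumors (15494) entered edgeR 4.0.16 (R 4.3.3): TMM factors, 1 quasi-likelihood fit of all 15 tumors by harvest day, two-sided F tests, Benjamini-Hochberg adjustment over all genes tested, threshold 0.05. The scripts were tested on simulated data. DESeq2 1.42.0 was an alternative. Log2 CPM used a prior count of 2. A count of 0 allows up to 3 counts, 0.0972 to 0.125 CPM depending on the tumor, counting error only, since reads are not independent molecules. Replicate pairs of a day differed beyond counting noise (chi-square per degree of freedom 9.58 to 285). Replicate numbers did not pair tumors: 9 of 30 same-numbered pairs had a correlation of deviations over 0.1, against 28 of 60 others.

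The 10 genes and all lists were chosen with earlier results of these data known. Named genes were the 10, those of the 4 pathway lists, and the genes with the highest r with their mean standardised level, of which 4 are given. Some listed genes are not reported here. H2-T9 of the class I list was not analysed here. The GAANNGAAA pattern and the DESeq2 fits without single tumors were added after seeing the data. Transcript lengths and gene coordinates came from GENCODE M21.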

Additional observations from a re-analysis of the deposited data

Results flagged for a closer look

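H2-D1 was singled out because its tumors moved to opposite sides of the untreated level at different harvest days. All 3 day 3 tumors were above the day 0 mean of 2588 CPM, with a log2 difference of 0.50, and all 3 day 7 tumors were below it, with -0.24. The distance between the days was -0.7409 on the log2 scale. The difference of the 2 effects was not tested beyond the direct contrast of day 7 with day 3, where edgeR's quasi-likelihood test gave an adjusted p of 0.0832 and DESeq2 gave 0.0138. Day 0 was shared by both effects. The day 7 tumors overlapped the day 0 range, with 2513 CPM in day 7 replicate 2 against 2404 in day 0 replicate 1.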

How the results depend on the processing

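The results were recomputed under 31 alternatives (normalization, filter, tool, samples fitted, replicate block, summed heavy chains and tumors left out in turn). The DESeq2 fits without single tumors gave only counts of called genes, so the tally of log2 differences leaves them out. In the other alternatives, 1041 recomputed log2 differences kept their direction and side of the threshold. A further 8 passed it only under the alternative and 11 reversed. For day 7 against day 3, where edgeR called 0 of 10 genes, DESeq2 called 7, and leaving out 1 tumor gave 0 to 1 with edgeR (H2-D1, adjusted p = 0.0493 without day 3 replicate 3, when 13.6% of all genes were called). With DESeq2 and 1 tumor left out the count was 0 to 8: 1, 5 and 7 when day 3 replicate 1, 2 or 3 was left out, 8 when day 7 replicate 2 was, and 0 when day 7 replicate 1 or 3 was. For day 3 against day 0, with each day 0 or day 3 tumor left out in turn, it was 0 to 1 (H2-K1, without day 3 replicate 3), and in the joint test DESeq2 called 1. With the replicate number as a block, 0 of 10 were called in every comparison, as without it, and the pairing check gave no sign that the numbers pair tumors (same-number correlations -0.62 to 0.51).

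Reversals were among small differences. On day 7 against day 0, Psmb9 was at 0.00069 when only the tumors of these days were fitted, and without 1 tumor H2-K1 ranged from -0.207 to 0.0087, Psmb8 from -0.232 to 0.0699, Psmb9 from -0.17 to 0.17 and Psmb10 from -0.37 to 0.17. Nlrc5 on day 5 ranged from -0.0497 to 0.259. The cause of these changes was not tested. With 3 tumors a day and standard errors of 0.18 to 0.29 on the log2 scale, differences of the size seen here could not be separated from the spread between tumors by edgeR, and the lowest value of a listed gene, 82.9 CPM for Psmb10, was far above the 0.125 CPM that a count of 0 allows at most.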
